A study of Mus musculus with 16 samples.

Results

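The genes of the AP-1 clathrin adaptor were followed in mouse blood neutrophils with and without the lymphotoxin beta receptor (LTβR). The 8 members, of 23337 genes in the count table, are the subunit genes Ap1s1, Ap1s2, Ap1s3, Ap1m1, Ap1b1, Ap1g1 and Ap1g2 and the regulator Ap1ar, taken by gene symbol. The members were chosen by the measured level of Ap1s1, which was higher in LTβR-deficient libraries, so its difference between genotypes is given as a description without a test, and the question was whether the other members differed too. All libraries came from 8 week old C57/Bl6 mice, from which blood neutrophils were enriched by magnetic negative selection. LTβRΔN mice carried Ltbr fl/fl alleles and Mrp8-Cre, a Cre recombinase under the promoter of a gene of the neutrophil lineage, whereas control (Ctrl) littermates carried the same floxed alleles without Cre. Receptor loss and the Cre transgene therefore cannot be told apart in any genotype difference. There were 3 unstimulated and 4 stimulated Ctrl libraries, and 4 unstimulated and 5 stimulated LTβRΔN libraries. The treatment protocol describes 2 h with TNF (100 ng/ml), IL-6 (50 ng/ml) and GM-CSF (100 ng/ml), with or without LIGHT (500 ng/ml), a ligand of LTβR, whereas the series' design text names the cytokines themselves as the variable. No label says what a single library received, and the groups are named here as labelled. The labels do not say how many mice entered a library, so p-values measure the spread between libraries. Column names carry a number that 7 pairs of an unstimulated and a stimulated library of the same genotype share. What it marks is not said, so libraries of a genotype pooled over treatments may not be independent.

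AP-1 is a complex of 4 subunits, namely the large gamma and beta subunits, the medium mu subunit and the small sigma subunit. It gathers cargo and clathrin on the trans-Golgi network and on endosomes, and is recruited there by the GTPase ARF1. In granulocytes such sorting routes serve granule and lysosome formation and the turnover of surface receptors. It shares only its abbreviation with the AP-1 transcription factor of the Fos and Jun families.

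The libraries held 1094335 to 11932653 counts. Levels are given as CPM, counts relative to the library total scaled by TMM normalization. Ltbr, the deleted gene, was at 116 ± 33.0 (SD, n = 3) and 109 ± 27.7 CPM (SD, n = 4) in unstimulated and stimulated Ctrl neutrophils, and at 8.22 ± 3.14 (SD, n = 4) and 8.65 ± 6.75 CPM (SD, n = 5) in LTβRΔN neutrophils, and no library went against its genotype label. Of 12 neutrophil markers 11 were in the table, and their summed level lay between 48070.4 and 78836 CPM in the 16 libraries. The summed level of 6 measured B cell markers stayed at or below 1.60 CPM and that of 5 NK cell markers at or below 0.140 CPM, whereas 7 monocyte markers summed to 344 to 563 CPM. Eosinophil markers summed to 38.4 to 114 CPM, erythroid markers to 12.01 to 67.0 CPM, T cell markers to 4.75 to 16.4 CPM, immature neutrophil markers to 42.4 to 811 CPM and platelet markers to 5.90 to 216 CPM. The highest immature neutrophil and platelet sums lay in stimulated Ctrl libraries, with group medians of 242 and 26.9 CPM. The medians of the other groups were 90.2 to 116 and 7.02 to 8.91 CPM. Whether this bears on other values was not tested. No tested marker of these lists passed the threshold in any comparison. Tested were 11 neutrophil, 6 platelet, 5 immature neutrophil, 3 monocyte, 2 T cell, 2 eosinophil, 1 erythroid, 0 B cell and 0 NK cell markers. Of all tested genes 0.0217% passed between genotypes, and 3.48% (Ctrl) and 3.73% (LTβRΔN) with treatment. So few markers therefore say little about the cell mix. All 8 members passed the filter on low counts and were among the 9213 genes tested by edgeR's quasi-likelihood test, and a gene is called changed where its p, adjusted after Benjamini-Hochberg, is under 0.05.

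The sigma subunit is the smallest of the complex and exists as 3 isoforms made from separate genes. Ap1s1 (ENSMUSG00000004849.14) lies on chr5:137034993-137046135 of GRCm38, on the minus strand. In unstimulated Ctrl neutrophils it was at 15.9, 9.18 and 14.6 CPM, and in stimulated Ctrl neutrophils at 8.11, 14.0, 19.2 and 15.4 CPM. In LTβRΔN neutrophils it was at 155, 126, 110.2 and 138 CPM without stimulation and at 154, 141, 113, 144 and 124 CPM with it. The highest Ctrl library had 19.2 CPM and the lowest LTβRΔN library 110.2 CPM, so the genotypes did not overlap, and the lowest LTβRΔN value was 5.73 times the highest Ctrl value. Over all libraries, 0.0109% of the tested genes were higher in LTβRΔN neutrophils without overlap. Since this measure chose the members, nothing is read from that share. The ratio of means was 9.98 in unstimulated and 9.55 in stimulated neutrophils, and the fitted log2 fold changes were 3.32 (SE 0.269) and 3.25 (SE 0.235). Relative to the mean, Ap1s1 varied less in LTβRΔN libraries (coefficient of variation 12.2%, n = 9, 157 to 1615 counts) than in Ctrl libraries (28.2%, n = 7, 59 to 209 counts), where its counts were lower. In whole cell populations, more cells with the transcript and more transcript per cell cannot be told apart.

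**Figure D1:**
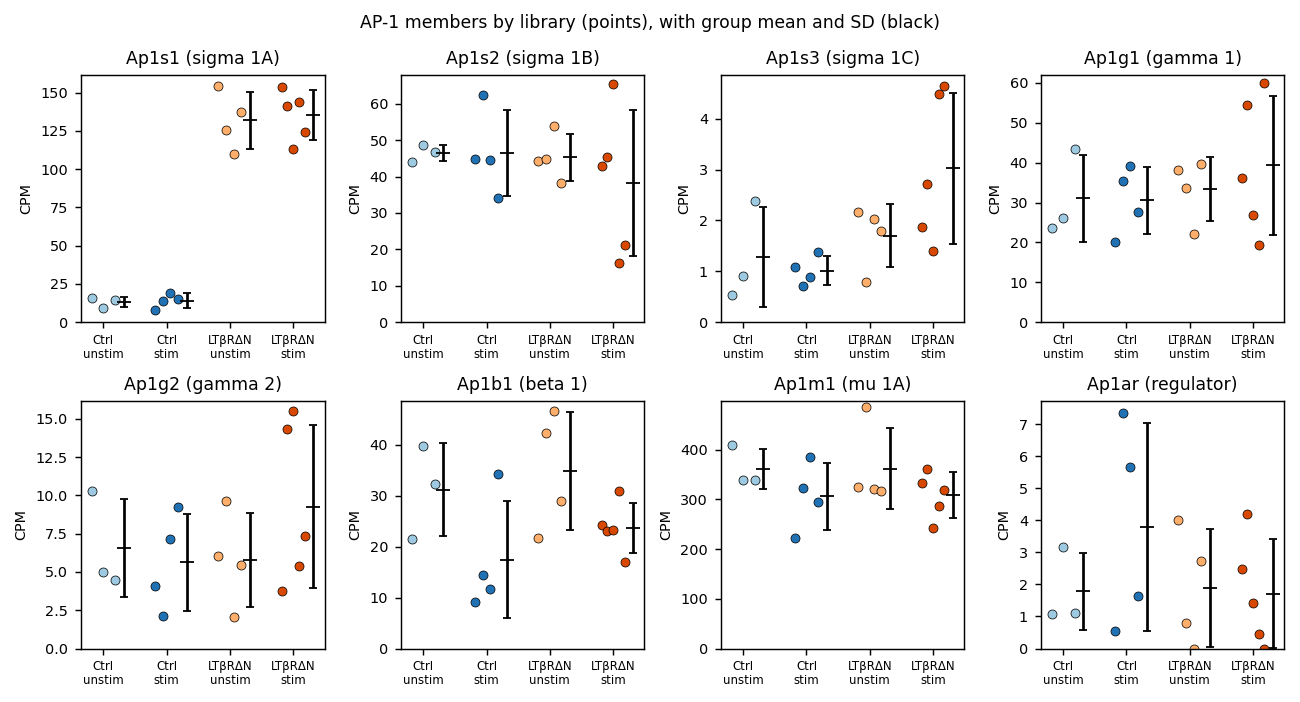
CPM of each member in every library (points, 1 panel per gene, axes from 0) by group, with the group mean and SD in black. Ap1s1 is above 100 CPM in all 9 LTβRΔN libraries and below 20 CPM in all 7 Ctrl libraries, and the other members overlap between the genotypes, except Ap1s3 in stimulated libraries.

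The other sigma genes did not pass the test between genotypes. Ap1s2, on chromosome X, was at 44.1, 48.7 and 46.6 CPM in unstimulated Ctrl and at 44.2, 44.8, 53.9 and 38.2 CPM in unstimulated LTβRΔN neutrophils. These groups overlapped, with a fold of 0.973 (95% interval 0.604 to 1.57, edgeR adjusted p = 1). With stimulation Ap1s2 was at 44.9, 62.4, 44.6 and 34.1 CPM in Ctrl and at 43.0, 45.3, 65.5, 16.2 and 21.3 CPM in LTβRΔN libraries, where 2 libraries lay below every other library. The fold was 0.818 (0.534 to 1.25, adjusted p = 0.962). Ap1s3, on chromosome 1, was near the lower limit of these data with 1 to 22 counts per library. In stimulated neutrophils it was at 1.08, 0.712, 0.892 and 1.37 CPM in Ctrl and at 1.87, 2.72, 1.41, 4.49 and 4.65 CPM in LTβRΔN libraries, and these did not overlap, as was the case in that direction for 0.651% of the tested genes. The fold of 2.96 had an interval from 0.706 to 12.4 and did not pass the test (adjusted p = 0.882), and in unstimulated neutrophils the groups overlapped (fold 1.37, 0.284 to 6.59). Of the sequence of Ap1s3, 16.3% of the stretches of 50 bases also occur in other annotated genes, so its count may be shared with them. No such stretch was shared between any pair of members, and 0 of those of Ap1s1 and Ap1s2 occur in another gene.

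Divided by exon length, the 3 sigma genes can be set side by side. Ap1s1 made up 37.7% ± 7.74 (SD, n = 3) and 39.7% ± 10.6 (SD, n = 4) of the sigma level per length in unstimulated and stimulated Ctrl neutrophils, with Ap1s2 at 59.6% and 58.0%. In LTβRΔN neutrophils Ap1s1 made up 85.9% ± 3.22 (SD, n = 4) and 87.5% ± 5.35 (SD, n = 5), with Ap1s2 at 13.3% and 11.0%. So Ap1s2 led in Ctrl and Ap1s1 in LTβRΔN neutrophils by group means. In the fourth stimulated Ctrl library Ap1s1 was ahead (48.8% beside 47.9%), and in the third they were close (48.5% and 49.8%). Ap1s2 was ahead in the remaining Ctrl libraries. The summed sigma level was 15.8 ± 1.34 and 16.2 ± 2.91 CPM per kb in Ctrl and 69.8 ± 7.76 and 70.3 ± 6.83 CPM per kb in LTβRΔN neutrophils, while the sum of Ap1s2 and Ap1s3 alone was 8.76 to 9.80 CPM per kb in the 4 group means. Between genotypes, share and sum thus restate the Ap1s1 values by which the members were chosen. The share of Ap1s1 was close between treatments, by 2.00 percentage points in Ctrl (exact two-sided permutation test, p = 0.857, smallest possible 0.0286) and by 1.62 points in LTβRΔN neutrophils (exact permutation p = 0.540, smallest possible 0.00794). After Benjamini-Hochberg adjustment over the 4 share tests, of sigma and gamma genes, every p was 0.857.

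**Figure D2:**
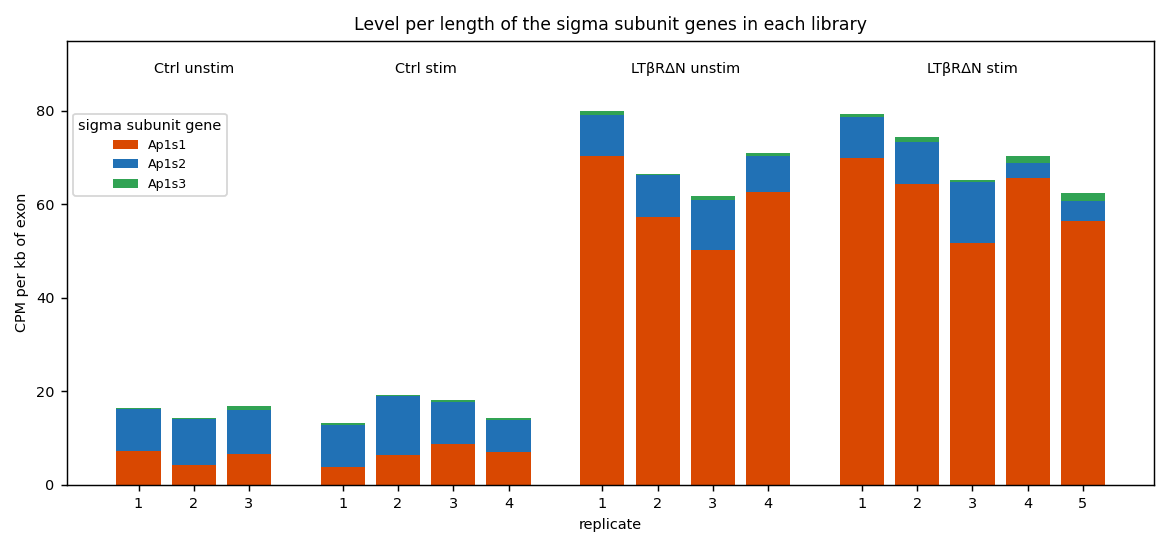
Level of Ap1s1, Ap1s2 and Ap1s3 in CPM per kb of exon, stacked for each of the 16 libraries in the 4 groups. The LTβRΔN bars reach 61.7 to 80.0 CPM per kb and the Ctrl bars 13.1 to 19.2, and the blue Ap1s2 part is of similar height in most libraries.

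Ap1m1 encodes the mu subunit, which reads tyrosine-based sorting signals in cargo, and was the most abundant member per length. In unstimulated neutrophils it was at 408, 339 and 338 CPM in Ctrl and at 325, 485, 321 and 316 CPM in LTβRΔN libraries. In stimulated neutrophils it was at 222, 322, 385 and 295 CPM in Ctrl and at 333, 361, 242, 287 and 319 CPM in LTβRΔN libraries. The genotypes overlapped under both labels, and only 1 LTβRΔN library, the one with the fewest counts, stood above all others. The folds between genotypes were 0.995 (95% interval 0.767 to 1.29) and 1.01 (0.802 to 1.27, edgeR adjusted p = 0.996), the narrowest intervals of any member. The level of the sigma genes relative to Ap1m1, per length, was 0.140 and 0.170 in Ctrl and 0.636 and 0.735 in LTβRΔN neutrophils. This ratio restates the Ap1s1 difference by which the members were chosen and adds no result. Ap1m2, the mu gene known from epithelial cells, was at 0 to 16.9 CPM and did not pass the test in any comparison.

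The large subunits carry the clathrin-binding hinge and the ear domains that hold accessory proteins. Ap1b1 (beta) was at 21.6, 39.8 and 32.3 CPM in unstimulated and at 9.19, 14.5, 11.7 and 34.3 CPM in stimulated Ctrl neutrophils. In LTβRΔN neutrophils it was at 21.7, 42.4, 46.6 and 29.0 CPM without and at 24.3, 23.0, 23.2, 30.98 and 17.05 CPM with stimulation. All 4 groups overlapped, although 3 of 4 stimulated Ctrl libraries were the lowest of all. Its folds between genotypes were 1.11 (95% interval 0.627 to 1.96) in unstimulated and 1.36 (0.810 to 2.27, edgeR adjusted p = 0.949) in stimulated neutrophils. The gamma genes Ap1g1 and Ap1g2 encode alternative large subunits. Ap1g1 lay between 19.3 and 60.05 CPM in the 16 libraries, with folds between genotypes of 1.08 (0.646 to 1.81) and 1.30 (0.826 to 2.06, adjusted p = 0.949). Ap1g2 lay between 2.04 and 15.5 CPM, with folds of 0.851 (0.315 to 2.30) and 1.64 (0.675 to 3.97, adjusted p = 0.953). Per length, Ap1g1 made up 69.5% to 77.1% of the gamma level in the 4 group means, and treatment moved this share by 3.72 percentage points in Ctrl (exact permutation p = 0.743) and by -7.63 points in LTβRΔN neutrophils (exact permutation p = 0.476). Stretches of 50 bases shared with overlapping or other genes made up 17.6% of Ap1g1, among them an antisense gene, and 8.14% of Ap1g2, which overlaps Thtpa. The sources used here do not say whether strand was used in counting, so these counts may hold reads of their partners.

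Ap1ar encodes a regulator that binds AP-1 and links its carriers to kinesin. On the other strand the gene overlaps Tifa and an antisense gene, and 3.49% of its stretches of 50 bases occur in another gene. Its counts may therefore hold reads of these partners. Ap1ar was the lowest member per length, with 0 to 57 counts per library. It reached 7.35 CPM in a stimulated Ctrl library and had 0 counts in an unstimulated and in a stimulated LTβRΔN library, where 3 counts, the limit a count of 0 allows for counting error, would be 0.679 and 1.16 CPM. Its folds of 1.10 (95% interval 0.169 to 7.14) and 0.471 (0.0887 to 2.50, edgeR adjusted p = 0.965) had the widest intervals of the members. The interval in unstimulated neutrophils includes a change of several fold in either direction. That in stimulated neutrophils includes a fall of several fold and a rise of up to 2.50-fold.

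Across the 8 members, 1 passed the threshold between genotypes under each label, Ap1s1, where 0.0217% of all tested genes were called under both labels. As Ap1s1 was chosen for this difference, that count is no result. Of the 7 others, 0 passed in unstimulated and 0 in stimulated neutrophils, also by DESeq2, and 0 were below an unadjusted p of 0.05, as 2.8% and 6.41% of all tested genes were. Their intervals differed in what they leave possible, since that of Ap1m1 ends below 1.3-fold in either genotype's favour in stimulated neutrophils, whereas there those of Ap1b1, Ap1g1, Ap1g2, Ap1s3 and Ap1ar include a 2-fold rise. The median log2 fold change of the 8 members was 0.12 and 0.41 in the unstimulated and stimulated comparison, beside -0.01 and -0.01 over all tested genes. It includes Ap1s1, which was chosen for its difference, and members with wide intervals, so nothing is read from it.

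**Figure D3:**
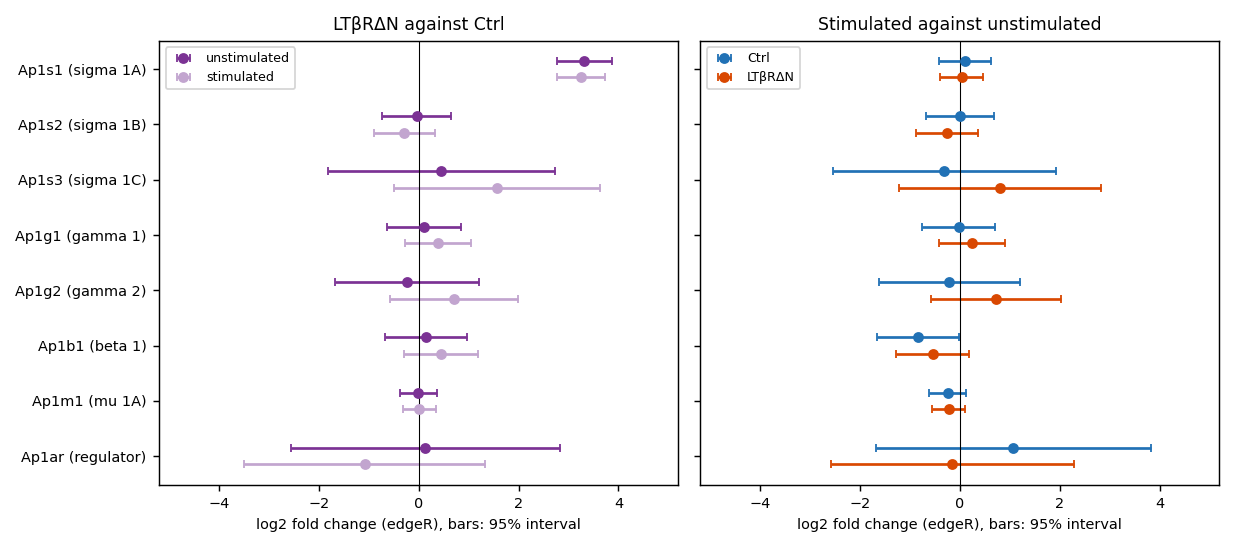
Fitted log2 fold changes of the 8 members with 95% intervals, for LTβRΔN against Ctrl (left) and stimulated against unstimulated (right). The Ap1s1 intervals on the left lie above 2.7 and every other interval in that panel crosses 0, while on the right only that of Ap1b1 in Ctrl neutrophils ends just below 0. Ap1s1 was chosen for its difference on the left, so its intervals there are a description and no test.

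The treatment label was not used to choose the members, so it could be tested for all of them. It moved 3.48% of the tested genes in Ctrl and 3.73% in LTβRΔN neutrophils, and 0 of the 8 members in either, by edgeR and by DESeq2. Ap1s1 had a log2 fold change of 0.10 (95% interval -0.41 to 0.62, adjusted p = 0.964) in Ctrl and of 0.03 (-0.39 to 0.46, adjusted p = 0.982) in LTβRΔN neutrophils. Both intervals exclude a 2-fold change. Ap1m1 had log2 fold changes of -0.24 (-0.61 to 0.13) and -0.22 (-0.55 to 0.11). Ap1b1 had the only unadjusted p under 0.05, in Ctrl neutrophils, where 11.4% of all genes were below that value (13% in LTβRΔN neutrophils). Its log2 fold change there was -0.84 (SE 0.393, edgeR adjusted p = 0.414), and in LTβRΔN neutrophils it was -0.55 (SE 0.357, adjusted p = 0.604). The Ctrl value rests on which libraries are counted, since without the fourth stimulated Ctrl library, the 1 at 34.3 CPM, it was -1.41 and passed the threshold (adjusted p = 0.0275). The remaining members lay between -0.31 and 1.07 in Ctrl and between -0.25 and 0.80 in LTβRΔN neutrophils on the log2 scale. The interaction of genotype and treatment was called for 0 members and 0 genes, with 0 members and 3.71% of genes at an unadjusted p under 0.05, and that of Ap1s1 was -0.07 (95% interval -0.74 to 0.60). Treatment and the library index go together here, because all unstimulated LTβRΔN libraries carry index S520 and all stimulated ones S521, so within LTβRΔN neutrophils they cannot be told apart. Stimulated libraries of both genotypes all carry S521, and the Ap1s1 difference in them lies within that index.

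Per length and averaged over the 16 libraries, Ap1m1 was at 104 ± 19.4 CPM per kb and Ap1s1 at 37.0 ± 28.5, which spans both genotypes. Ap1s2 followed at 8.78 ± 2.52, Ap1b1 at 5.32 ± 2.20 and Ap1g1 at 4.44 ± 1.53. The spread of Ap1b1 overlaps those of Ap1s2 and Ap1g1. Ap1g2 was at 1.68 ± 0.945, Ap1s3 at 0.647 ± 0.430 and Ap1ar at 0.261 ± 0.243 CPM per kb, neighbours in this order whose ranges overlap. In Ctrl neutrophils Ap1s1 was at 6.02 ± 1.62 and 6.45 ± 2.10 CPM per kb without and with stimulation, below Ap1s2 and above Ap1g1. Ap1b1 was at 6.30 ± 1.84 and 3.51 ± 2.32 CPM per kb there, close to Ap1s1 in unstimulated libraries only. In LTβRΔN neutrophils Ap1s1 was at 60.04 ± 8.52 and 61.6 ± 7.42 CPM per kb, below Ap1m1 only. These subunits form the complex in equal numbers, so the levels describe transcripts and not the protein complex.

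Other genes of the route were taken from lists of 66 genes (AP-2 to AP-5, clathrin, GGA adaptors, ARF GTPases and their exchange factors, accessory proteins and sorted cargo), of which 61 were tested. Between genotypes 0 of the 61 passed the threshold in unstimulated and 0 in stimulated neutrophils, where 0.0217% of all tested genes were called under each label, and 0 passed by DESeq2. At an unadjusted p under 0.05 there were 4 and 5 of the 61, beside 2.8% and 6.41% of all tested genes, and the lists' median log2 fold changes were -0.01 and -0.07. With treatment, 3 rose in Ctrl neutrophils (4.92% of the list, beside 2.82% of all genes) and 2 rose in LTβRΔN neutrophils (3.28%, beside 2.98%), and 0 fell in either. These counts are too small to set the lists apart from all genes. Of the coat components, 0 of 2 clathrin genes, 0 of 5 AP-2 and 0 of 6 AP-3 genes passed in any comparison.

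Furin, a protease that is sorted by AP-1 between the trans-Golgi network and endosomes, rose under both genotypes. It was at 84.3, 102 and 79.4 CPM in unstimulated and 262, 171, 157 and 162 CPM in stimulated Ctrl neutrophils, a log2 fold change of 1.08 (SE 0.185, edgeR adjusted p = 4.07e-04). In LTβRΔN neutrophils it was at 107, 100.0, 103 and 89.8 CPM without and 196, 154, 209, 222 and 206 CPM with stimulation, a log2 fold change of 0.98 (SE 0.164, adjusted p = 3.11e-04). The treatments did not overlap in either genotype, as was the case in that direction for 6.58% and 4.61% of the tested genes. Picalm, a clathrin assembly protein, was at 500.5, 343, 399 and 445 CPM without and 669.7, 593, 659, 698 and 725.98 CPM with stimulation in LTβRΔN neutrophils, again without overlap. Its log2 fold change was 0.66 (SE 0.136, adjusted p = 0.00331), beside 0.48 in Ctrl neutrophils (adjusted p = 0.111), where it passed without the third unstimulated library (0.64, adjusted p = 0.0364) and by DESeq2 (adjusted p = 0.0394). Sort1, which encodes the sorting receptor sortilin, was at 9.66, 14.7 and 15.4 CPM in unstimulated and 41.4, 53.6, 25.4 and 44.3 CPM in stimulated Ctrl neutrophils, a rise of 1.63 on the log2 scale (SE 0.351, adjusted p = 0.00551). Gbf1, an exchange factor that activates ARF GTPases, was at 16.4, 7.14 and 8.84 CPM in unstimulated and 84.7, 22.5, 56.3 and 25.5 CPM in stimulated Ctrl neutrophils, a rise of 2.12 (SE 0.505, adjusted p = 0.0136). In LTβRΔN neutrophils Sort1 and Gbf1 had log2 fold changes of 0.28 and 0.08 and did not pass, and the interactions of -1.35 and -2.04 did not pass either (adjusted p = 0.99992 for both). The call of Gbf1 was lost without the second unstimulated (adjusted p = 0.119), the third unstimulated (0.0881) or the first stimulated Ctrl library (0.0617), and that of Sort1 without the first unstimulated one (0.0581). With the library index as a covariate, which takes up most of the treatment contrast, Furin still passed in Ctrl neutrophils (0.0228). The calls of Gbf1 (0.304) and Sort1 (0.438) there and of Furin (0.158) and Picalm (0.99987) in LTβRΔN neutrophils were lost. Only the unstimulated Ctrl group holds both indexes, 2 libraries with S520 and 1 with S521. The index term rests on these libraries and is carried over to LTβRΔN neutrophils, so it cannot separate index from treatment there.

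**Figure D4:**
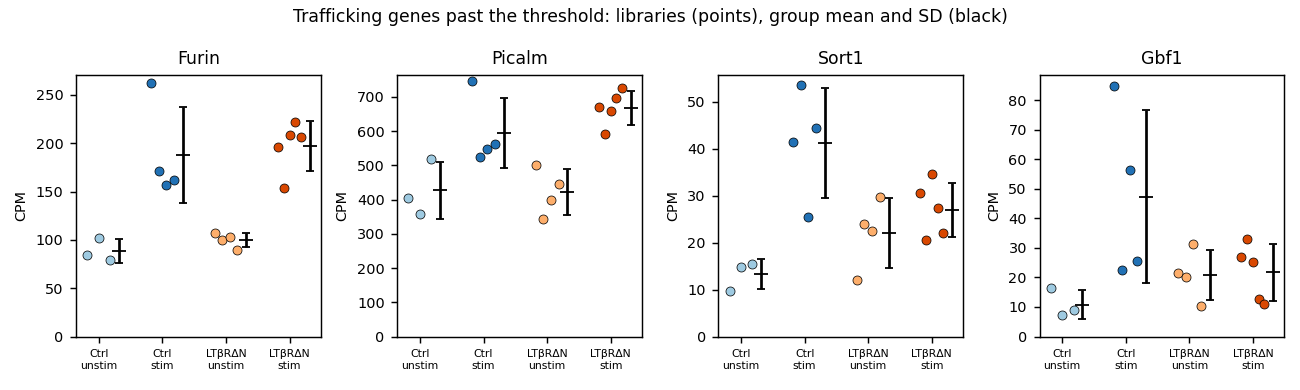
CPM of Furin, Picalm, Sort1 and Gbf1 in every library (points) by group, with mean and SD in black and axes from 0. Stimulated libraries lie above unstimulated ones of the same genotype for Furin and Picalm, and for Sort1 and Gbf1 in Ctrl neutrophils only.

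The genes around Ap1s1 showed whether its surroundings on chromosome 5 differed as well. Of the 10 nearest annotated protein-coding genes on each side, 18 were in the table and 10 were tested. Between genotypes 0 of the 10 passed the threshold under either label, and 0 by DESeq2, which at a share of 0.0217% called among all tested genes says little about 10 genes. At an unadjusted p under 0.05 there were 1 and 2 of the 10, beside 2.8% and 6.41% of all tested genes. Their log2 fold changes ran from -0.92 to 0.26 in unstimulated and from -1.11 to 1.83 in stimulated neutrophils, and the smallest adjusted p was 0.676. The nearest gene, Vgf, ends 1641 bases from Ap1s1 and had 8 counts over the 16 libraries, so it was not tested. Plod3, at 38344 bases, had log2 fold changes of -0.44 (SE 0.269) and -0.13 (SE 0.239), and Trim56, at 59508 bases on the other side, 0.26 (SE 0.289) and -0.09 (SE 0.256). The value of 1.83 belongs to Trip6, 263518 bases away, which had 200 counts over the 16 libraries and an SE of 1.19.

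**Figure D5:**
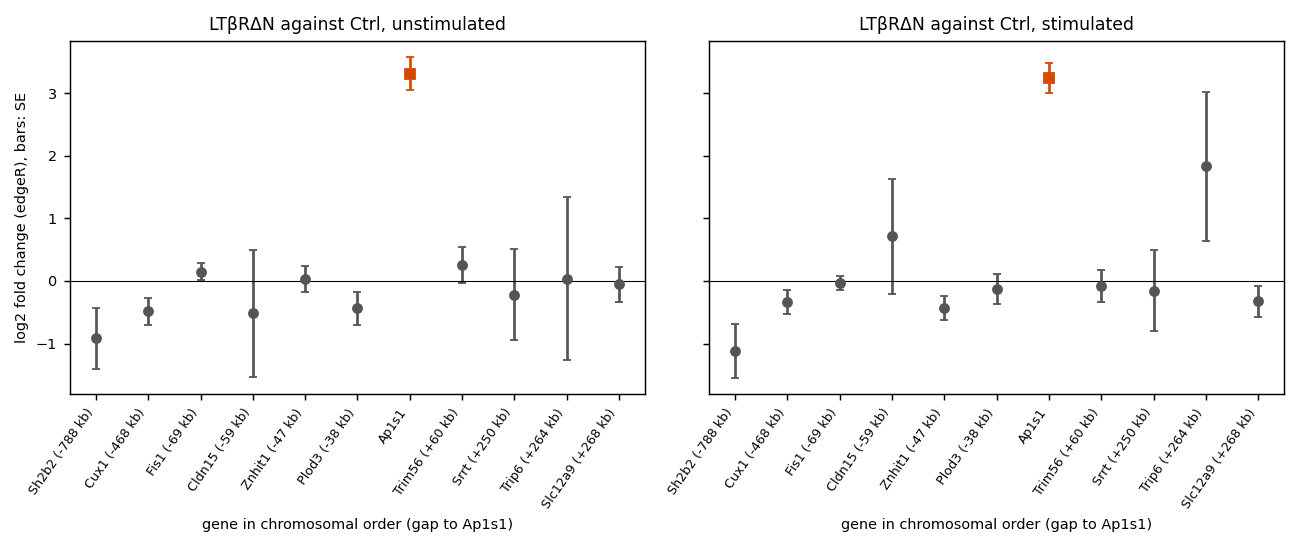
Fitted log2 fold change (points, bars SE) of Ap1s1 (orange square) and of the 10 tested neighbouring genes in chromosomal order, labelled with their gap to Ap1s1, for LTβRΔN against Ctrl without (left) and with stimulation (right). Ap1s1 lies above 3 in both panels and its neighbours lie between -1.11 and 1.83.

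Genes whose log2 CPM followed Ap1s1 most closely over the 16 libraries were Bmf (Pearson r 0.82), Rbks (0.82), Pld1 (0.76), Cebpb (0.76) and Zfp773 (0.75), and those running most against it were Ltbr (-0.87), Psmd12 (-0.83) and Cinp (-0.80). In Ap1s1 the libraries fall into 2 groups by genotype, so these values hold its genotype difference and describe the genes only. Within the 7 Ctrl and the 9 LTβRΔN libraries r was 0.32 and -0.34 for Bmf, 0.04 and 0.50 for Rbks, 0.14 and -0.43 for Pld1, -0.22 and 0.54 for Cebpb, and 0.39 and -0.23 for Zfp773. It was 0.19 and 0.68 for Ltbr, -0.18 and -0.02 for Psmd12, and -0.74 and -0.78 for Cinp, a gene of 0.296 to 3.11 CPM in the 4 group means. Among the members, r with Ap1s1 was 0.60 for Ap1s3, 0.31 for Ap1b1, 0.29 for Ap1g1, 0.20 for Ap1g2, 0.10 for Ap1m1, -0.21 for Ap1ar and -0.28 for Ap1s2. Within Ctrl libraries the highest of these were 0.71 for Ap1m1 and 0.64 for Ap1g1, which were 0.14 and 0.25 within LTβRΔN libraries, where Ap1ar had 0.66 (0.39 within Ctrl).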

How the data were processed

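Blood neutrophils of 7 Ctrl and 9 LTβRΔN libraries were measured by bulk RNA-Seq with single-end reads. The authors deposited 1 table of whole-number read counts per gene symbol, without normalization. The submitters' processing notes name Bowtie 1.0.0, TopHat 1.4.1, HTSeq 0.7.1 and the build mm10. Their roles, the annotation and the use of strand are not given in the sources used here. Total counts of 1094335 to 11932653 per library limit the precision of low genes such as Ap1s3 and Ap1ar, and floors cover counting error only.

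The members and all lists were chosen with earlier results of these data known. Named genes are the 8 members, Ltbr, listed trafficking genes past the threshold with treatment (up to 5 per direction), neighbours of Ap1s1 by position and the genes most and least like it. Ap1m2 is the remaining AP-1 gene of the lists.

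Counts of genes kept by filterByExpr (minimum count 10, minimum total 15) of all 16 libraries entered a model in R 4.3.3 (edgeR 4.0.16, TMM scaling, a term for each of the 4 groups), each contrast was tested by quasi-likelihood and its p-values adjusted over 9213 genes after Benjamini-Hochberg. Intervals are 95% intervals of the fitted value. Shares of subunits were compared by exact permutation tests in SciPy 1.17.1. The script was tested on simulated data. Gene places, exon lengths and shared stretches of 50 bases came from GENCODE M21 on GRCm38, the assembly also named mm10. Library pairs of a group differed beyond sampling noise (chi-square 7.12 to 50.4 per degree of freedom, 25 pairs), so each counted as 1 replicate. Alternatives were DESeq2 1.42.0, other scalings and filters, the library index, a replicate block, the compared groups only, shares without division by length, and each library left out in turn.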

Additional observations from a re-analysis of the deposited data

Results flagged for a closer look

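Within groups of 4 or 5 libraries, 33 sets of values were examined for a library far from the others, and 1 was found where chance at 1 in 20 would give 1.65. Ap1m1, the mu subunit gene, was at 485 CPM in the second unstimulated LTβRΔN library, and its gap to the next library took up 0.951 of the range of the 4. That library has the smallest total of all, 1094335 counts. Without it the log2 fold change of Ap1m1 between genotypes in unstimulated neutrophils was -0.17, the lowest value when single libraries were left out, and did not pass the test.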

How the results depend on the processing

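Leaving Ap1s1 aside as chosen, 0 of the other 7 members passed between genotypes under any alternative. Ap1s1 kept its direction in 32 alternatives with log2 fold changes of 3.05 to 3.48. These refit the values by which the members were chosen and lend that difference no support. Over all members and comparisons, 635 of 705 alternatives kept direction and side of the threshold, 1 moved Ap1b1 past it (without the fourth stimulated Ctrl library, 1 member called in place of 0), and 69 changed the sign of an estimate that was not called. The cause was not tested in any of these. Low totals limit Ap1s3 and Ap1ar most. With scaling by library totals only, the median log2 fold change of all genes with treatment was -0.27 in Ctrl and -0.21 in LTβRΔN neutrophils, beside -0.02 and -0.03 with TMM. It turned the treatment estimates of Ap1s1 to -0.14 in Ctrl and -0.15 in LTβRΔN and that of Gbf1 to -0.11 in LTβRΔN neutrophils, and called 6 and 7 trafficking genes in place of 3 and 2. DESeq2's size factors and upper-quartile factors gave Ap1m1 0.0059 and 7.56e-04 between genotypes without stimulation, and the former gave Ap1s2 0.0094 with treatment in Ctrl neutrophils. DESeq2 itself gave 0.0056 for Ap1m1 and 0.010 for Ap1s2 in these, and called 4 genes between genotypes without and 14 with stimulation, each in place of 2, and 5 trafficking genes with treatment in Ctrl neutrophils. Keeping every gene with at least 1 count called 4 genes between genotypes without stimulation, and asking for 10 counts in every library called 1 under each label and gave Ap1s2 0.0072 with treatment in Ctrl. The term for the library index rests on the unstimulated Ctrl libraries, the only group with both indexes. The library index as a covariate called 157 in place of 321 genes with treatment in Ctrl and 79 in place of 344 in LTβRΔN neutrophils. It called 1 gene in the interaction, and 1 and 0 trafficking genes. It gave -0.037 for Ap1s1 and 0.34 for Ap1g2 with treatment in Ctrl, and -0.18, -0.90, -0.56, 0.75 and -0.060 for Ap1s1, Ap1s3, Ap1g1, Ap1ar and Sort1 with treatment in LTβRΔN neutrophils. It also gave -0.11 for Ap1ar between genotypes without stimulation and -0.049 for the interaction of Ap1g1. The column names carry a number that 7 pairs of an unstimulated and a stimulated library share, but the labels do not say what it marks. The deviations of the pairs correlated with r of 0.0214 to 0.0694, none over 0.1, and in 6 of 7 pairs this exceeded the highest r with another number, a hint from the data and not the design. A replicate block for this number called 323 and 332 genes with treatment, 0 in the interaction and 0 members in each of these, and gave Picalm an adjusted p of 0.0466 in Ctrl neutrophils. It gave -0.11 for Ap1s1 with treatment in Ctrl, -0.040 and 0.59 for Ap1g1 and Ap1ar in LTβRΔN neutrophils, and 0.18 and 0.29 for the interactions of Ap1s1 and Ap1ar. With single libraries left out, all genes called ranged from 219 to 335 and 265 to 334 with treatment, 2 to 6 between genotypes without stimulation (6 without the first unstimulated Ctrl library) and 0 to 2 in the interaction (2 and 1 without unstimulated Ctrl library 1 and 3). Estimates that changed sign so ranged, with treatment in Ctrl neutrophils, from -0.11 to 0.30 for Ap1s1, -0.17 to 0.12 for Ap1s2, -0.68 to 0.49 for Ap1s3, -0.19 to 0.30 for Ap1g1 and -0.55 to 0.26 for Ap1g2. In LTβRΔN neutrophils they ranged from -0.044 to 0.12 for Ap1s1, -0.91 to 0.49 for Ap1ar and -0.16 to 0.36 for Gbf1. Between genotypes without stimulation they ranged from -0.51 to 0.83 for Ap1ar, -0.058 to 0.36 for Ap1b1, -0.053 to 0.43 for Ap1g1, -0.53 to 0.25 for Ap1g2, -0.17 to 0.090 for Ap1m1 and -0.14 to 0.039 for Ap1s2, and with stimulation from -0.11 to 0.14 for Ap1m1. For the interaction they ranged from -0.049 to 0.44 for Ap1g1, -0.10 to 0.19 for Ap1m1 and -0.26 to 0.14 for Ap1s1. In Ctrl neutrophils the change with treatment of the share of Ap1s1 ranged from -2.23 to 5.83 and that of Ap1g1 from -4.09 to 10.1 percentage points.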
